A study of Mus musculus with 4 samples.

Results

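The sterol-sensing control of the SREBP transcription factors was examined through 6 genes: Srebf2, Scap, Insig1, Insig2, Mbtps1 and Mbtps2. They were taken from a list of the genes of this system, with Srebf1 left out, and they are 6 of the 30284 genes whose estimated counts were summed in the series. RNA came from small-intestinal organoids, epithelial cultures grown in Matrigel from crypts of 2 male C57BL/6J mice, with an age of 9 weeks given in the labels. The tested cultures had 2 µM GW3965, an agonist of the liver X receptors (LXR), for 6 h, and the cultures set against them had the vehicle DMSO for the same time. Each mouse gave 1 culture of each kind, so each group holds 2 libraries. The labels give no allele or transgene for either group. The question addressed is how the RNA of the epithelium differs after a short pulse of LXR agonist.

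SREBP proteins are made as inactive precursors in the membrane of the endoplasmic reticulum. SCAP escorts them to the Golgi in vesicles coated by the COPII complex when sterols are low, and there site-1 protease (encoded by Mbtps1) and site-2 protease (Mbtps2) release the part that enters the nucleus. When sterols are high, SCAP binds cholesterol, the INSIG proteins bind an oxysterol, and an INSIG protein holds SCAP and its cargo in the endoplasmic reticulum. SREBP2, the product of Srebf2, mainly drives genes of cholesterol synthesis and uptake. Srebf2 and Insig1 are themselves known SREBP targets. These steps act largely on proteins, and the libraries measured RNA alone.

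The libraries held 16572359 to 19486547 estimated counts, and 13602 genes were expressed enough to be tested. One library stood apart, the GW3965 culture of mouse 1, with 14.01% of its gene counts on the mitochondrial genome, against 8.74% in the GW3965 library of mouse 2 and 7.60% and 9.43% in the DMSO libraries. All 8 epithelial markers listed were above 0 in each library, and their summed level was 18644 and 28102 normalised CPM (read counts scaled to the library size) with GW3965, against 25091 and 26409 with DMSO. Of 10 leukocyte markers 8 were above 0 in every library and none was at 0 throughout. Their sum was 57.9 CPM in the GW3965 library of mouse 1 and 29.1 to 32.5 in the other libraries. The 8 markers of mesenchyme and endothelium were above 0 in every library and summed to 29.9 and 20.0 CPM with GW3965, against 15.5 and 17.2 with DMSO. Most of that sum was Pecam1, an endothelial and leukocyte adhesion gene, with 25.8 and 17.0 CPM with GW3965 and 13.4 and 14.3 CPM with DMSO. The endothelial gene Cdh5 had 1 to 2 estimated counts in each library. In bulk RNA, fewer cells of a type and less RNA per cell cannot be told apart. The part of these differences in the results for the mouse 1 cultures was not tested. The 6 listed small-intestinal markers summed to 3437 to 4239 CPM and the 5 colon markers to 29.5 to 34.0, so the tissue label was followed, although the labels' extraction protocol names colon. The sterol exporter genes Abca1 and Abcg1 and the SREBP1 gene Srebf1, all direct LXR targets, rose with GW3965 46.7-fold, 20.4-fold and 5.78-fold (adjusted p = 0.00134, 0.000157 and 0.00525, edgeR's quasi-likelihood test).

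All 6 genes were expressed. Per length, in TPM (a transcript abundance corrected for length, summed over the transcripts of a gene), they kept a fixed order in each of the 4 libraries: Insig1, Srebf2, Insig2, Scap, Mbtps1 and Mbtps2. Insig1 was at 49.1 and 96.7 TPM with GW3965 in mouse 1 and mouse 2, against 77.7 and 112 TPM with DMSO. Srebf2 was at 35.8 and 62.8 TPM with GW3965 and 63.4 and 64.4 TPM with DMSO. Over the 4 libraries the ranges of these neighbours overlapped, although Insig1 was above Srebf2 within every library, by 1.37 and 1.54 times with GW3965 and 1.23 and 1.74 times with DMSO. Insig2 spanned 21.9 to 25.4 TPM and Scap 16.5 to 20.8 TPM, with no overlap. Mbtps1 spanned 9.65 to 14.2 TPM and Mbtps2 5.57 to 7.77 TPM, likewise with no overlap.

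The place of Insig2 in that order rested on short annotated transcripts, which weigh heavily per length. Its main transcript (the one with most of the gene's count, 2697 bases long) was at 7.59 to 10.8 TPM, which put it below the main transcript of Mbtps1 (9.65 to 13.9 TPM) within every library. With the main transcript of each gene alone, Insig2 stood between Mbtps1 and Mbtps2 in all 4 libraries and the others kept their order. Insig1 exceeded Insig2 by 2.00 and 3.81 times in TPM with GW3965, against 3.55 and 4.84 times with DMSO. Against the main Insig2 transcript alone the ratios were 6.47 and 8.94 with GW3965 and 7.86 and 11.3 with DMSO. INSIG transcripts (both genes summed) outnumbered those of Scap by 4.47 and 6.07 times with GW3965 and 4.80 and 7.45 times with DMSO.

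**Figure D1:**
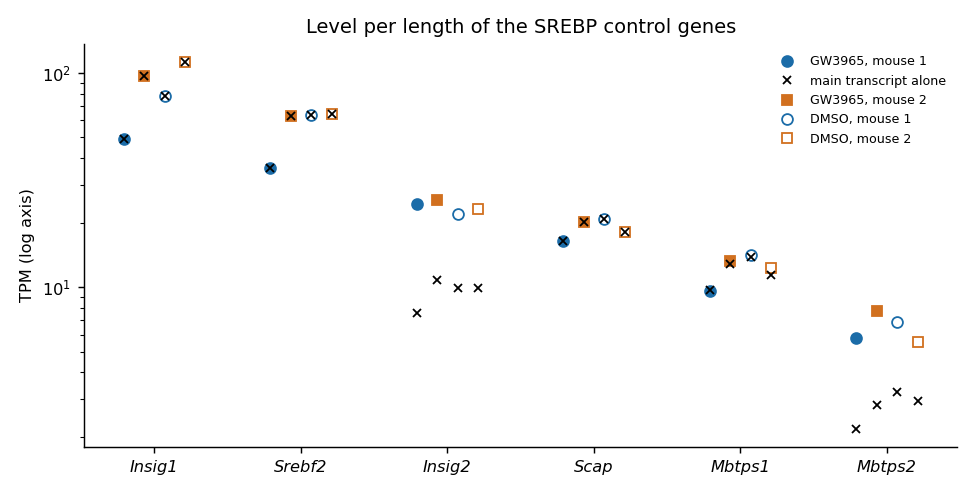
Level per length (TPM, log axis) of the 6 genes in each library, with circles for mouse 1, squares for mouse 2, filled symbols for GW3965 and open symbols for DMSO; crosses give the main transcript alone. Insig1 and Srebf2 are highest, and the crosses of Insig2 lie at 7.59 to 10.8 TPM, under its gene sums of 21.9 to 25.4 TPM.

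Srebf2, the gene of the SREBP2 precursor, lies on chromosome 15 (82147181 to 82205379, plus strand) of the mouse build GRCm38 in the GENCODE M21 annotation, and the microRNA gene Mir33 lies within it. Its promoter is shown because Srebf2 is itself a known SREBP target and had one of the 2 lowest log2 fold changes among the 6 genes. The window, from RefSeq (GRCm38.p6), holds 250 bases before and 50 after the annotated start, on the strand of the gene. Capitals mark CCAAT (bound by NF-Y), GGGCGG (bound by SP1), the E-box CACGTG and TCACNCCA, a shortened sterol regulatory element, each on either strand.
Srebf2, chr15:82147019-82147318, plus strand: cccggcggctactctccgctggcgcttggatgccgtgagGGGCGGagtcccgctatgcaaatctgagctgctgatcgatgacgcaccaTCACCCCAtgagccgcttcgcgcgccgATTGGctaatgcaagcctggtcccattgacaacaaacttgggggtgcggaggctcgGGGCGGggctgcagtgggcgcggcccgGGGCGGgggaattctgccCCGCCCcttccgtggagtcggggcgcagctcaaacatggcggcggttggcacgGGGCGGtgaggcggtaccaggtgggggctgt
The sterol element was first searched for as TCACNCCAC, which is in 1.24% of 32851 RefSeq promoter windows and in none of the 9 windows of the 6 genes. The shortened form was chosen after this window had been seen and matches at position -162 (counted from the start site), with a CCAAT at -135. It is in 4.36% of all windows, CCAAT in 37.4%, GGGCGG in 35.7% and CACGTG in 7.15%. An exact direct repeat of AGGTCA with 4 bases between, a form bound by LXR with its partner RXR, is in 0.0152% of windows and in none of these 9. The search allowed no mismatch and covered the windows alone. At so low a rate, its absence from 9 windows says nothing on LXR binding.

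Srebf2 had 3091 and 5315 estimated counts with GW3965 in mouse 1 and mouse 2, against 5474 and 5699 with DMSO, or 188 and 279 normalised CPM with GW3965 against 281 and 302 CPM with DMSO. Both GW3965 libraries thus lay below both DMSO libraries, though that of mouse 2 missed the DMSO library of mouse 1 by under 3 CPM. Of all genes tested, 9.18% had both GW3965 libraries below both DMSO libraries, and of the 6 genes Srebf2 was the one that did. The means were 234 ± 64.0 CPM with GW3965 and 292 ± 14.9 CPM with DMSO (SD, n = 2 each). The log2 fold change was -0.32 ± 0.25 (SE), or 0.801-fold with a 95% interval of 0.541 to 1.19, and it did not pass the test (adjusted p = 0.9999, edgeR over all genes). Mouse 1 gave a log2 difference of -0.58 and mouse 2 one of -0.12, so most of it came from the GW3965 library with the high mitochondrial share. Without that library the log2 fold change was -0.07. Srebf1, whose TPM was 0.762 and 0.807 times that of Srebf2 with DMSO, was at 7.03 and 4.66 times the Srebf2 level with GW3965 in mouse 1 and mouse 2.

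Insig1, on chromosome 5 (28071363 to 28078662, plus strand), encodes the sterol-regulated INSIG protein and had the lowest fitted log2 fold change of the 6 genes, without passing the test. Its promoter is shown for the same reasons as that of Srebf2, with the same motifs in capitals.
Insig1, chr5:28071162-28071461, plus strand: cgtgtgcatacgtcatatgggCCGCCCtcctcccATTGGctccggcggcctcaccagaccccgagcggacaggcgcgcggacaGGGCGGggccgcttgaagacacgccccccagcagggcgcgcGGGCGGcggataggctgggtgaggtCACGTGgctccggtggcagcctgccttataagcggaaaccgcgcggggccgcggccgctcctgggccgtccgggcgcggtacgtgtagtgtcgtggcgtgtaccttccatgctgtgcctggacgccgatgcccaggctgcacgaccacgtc
The window holds a CCAAT at -216, an E-box CACGTG at -101 and 3 matches of GGGCGG, and no match of either form of the sterol element. Insig1 had 135 and 225 normalised CPM with GW3965 in mouse 1 and mouse 2, against 180 and 275 CPM with DMSO. The groups overlapped, because mouse 2 was above mouse 1 in either treatment, by 0.73 on the log2 scale with GW3965 and by 0.61 with DMSO. Within a mouse the GW3965 culture was lower, by a log2 difference of -0.42 in mouse 1 and -0.29 in mouse 2. The means were 180 ± 63.3 CPM with GW3965 and 228 ± 66.8 CPM with DMSO (SD, n = 2 each). The log2 fold change was -0.34 ± 0.30 (SE), or 0.791-fold (95% interval 0.495 to 1.26, adjusted p = 0.9999 in edgeR). With the mouse as a block the log2 fold change was -0.35 and the adjusted p 0.9999. Leaving out 1 library leaves the mice unequally represented, and the gap between them then enters the estimate. With a GW3965 library removed, the log2 fold change was -0.02 (mouse 1 removed) or -0.75 (mouse 2 removed), and with a DMSO library removed it was -0.61 (mouse 1) or -0.01 (mouse 2). Of the 31-mers of Insig1, 3.90% also occur in the pseudogene Gm37784, which had 0 counts.

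**Figure D2:**
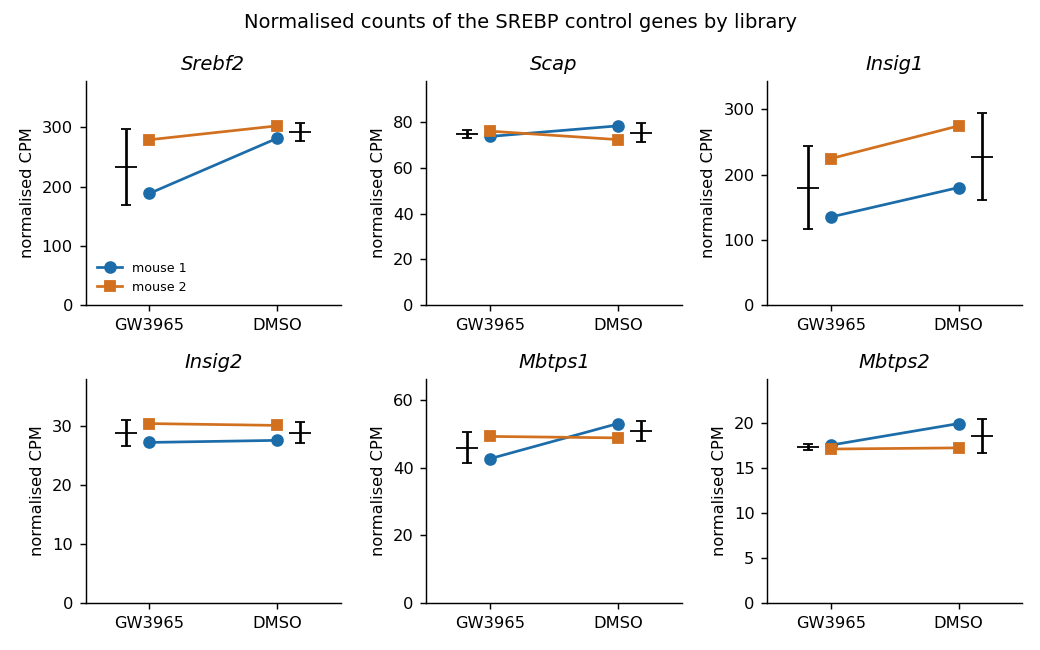
Normalised CPM of the 6 genes, 1 panel each with its own axis from 0, with GW3965 left and DMSO right; lines join the cultures of a mouse and black bars give the mean ± SD of 2 libraries. The Insig1 lines of the 2 mice run side by side, and the Srebf2 line is steep in mouse 1 (188 and 281 CPM) and shallow in mouse 2 (279 and 302 CPM).

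Insig2, the gene of the other INSIG protein, lies on chromosome 1 (121304353 to 121332589, minus strand) and was level between the groups. It had 27.2 and 30.4 CPM with GW3965 in mouse 1 and mouse 2, against 27.6 and 30.1 CPM with DMSO. Each GW3965 culture was within 0.4 CPM of the DMSO culture of its mouse. The log2 fold change was -0.001 ± 0.185 (SE), with a 95% interval of 0.750-fold to 1.33-fold (adjusted p = 0.9999, edgeR). Insig2 shared no 31-mer with another gene, Insig1 included, so its counts were not mixed with those of Insig1.

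Mouse Insig2 has alternative first exons, and RefSeq gives 3 start sites. The windows of the upstream and the middle start are shown because the reads were assigned to them very unequally. Capitals mark the same motifs.
Insig2 upstream start, chr1:121332540-121332839, minus strand: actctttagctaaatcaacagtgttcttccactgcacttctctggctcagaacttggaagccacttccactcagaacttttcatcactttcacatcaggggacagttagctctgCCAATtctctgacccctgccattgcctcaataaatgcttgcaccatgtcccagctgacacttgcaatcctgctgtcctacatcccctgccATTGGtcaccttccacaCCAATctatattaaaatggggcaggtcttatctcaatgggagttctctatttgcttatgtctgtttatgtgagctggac
Insig2 middle start, chr1:121327975-121328274, minus strand: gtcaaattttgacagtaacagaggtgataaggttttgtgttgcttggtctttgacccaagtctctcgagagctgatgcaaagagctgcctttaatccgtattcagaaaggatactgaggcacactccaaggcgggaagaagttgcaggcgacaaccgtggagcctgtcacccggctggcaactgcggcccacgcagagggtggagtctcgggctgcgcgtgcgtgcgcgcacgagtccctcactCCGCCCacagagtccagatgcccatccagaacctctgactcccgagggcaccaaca
The upstream window holds 3 matches of CCAAT, at -136, -46 and -29, and none of GGGCGG, and 46.0% of its bases are G or C. The middle window holds 1 match of GGGCGG at -6 and none of CCAAT, with 57.0% G or C. The 2 transcripts that begin at the upstream start were listed at 0 in all 4 libraries. Few reads bear on a start site, so these zeros set no close limit on its use. The main transcript, from the middle start, took 76.7% and 82.6% of the Insig2 count with GW3965 in mouse 1 and mouse 2, against 83.2% and 80.8% with DMSO. The 7 transcripts within 200 bases of the downstream start took 18.1% and 14.3% with GW3965 and 13.4% and 14.8% with DMSO. The remaining 4 transcripts begin inside the gene and took 3.1 to 5.2%. No shift between starts was common to both mice. Single-end reads of 50 bases reach a first exon rarely, and kallisto divides the others between transcripts, so these shares are estimates.

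**Figure D3:**
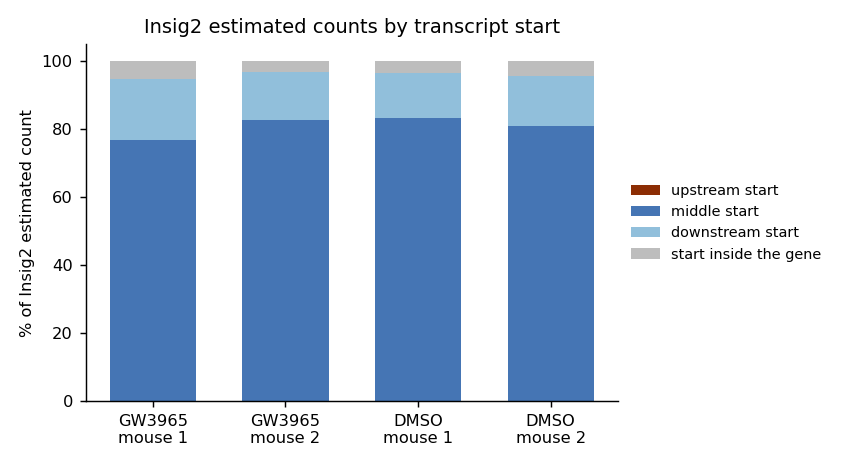
Share of the Insig2 estimated count (percent) by the start of its transcripts, 1 bar per library, GW3965 left and DMSO right. The middle start holds 76.7 to 83.2% in every library, and the upstream start is listed at 0.

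Scap, on chromosome 9 (110333288 to 110384950, plus strand), encodes the sterol sensor and escort of the precursors. It had 73.8 and 76.1 CPM with GW3965 in mouse 1 and mouse 2, against 78.4 and 72.4 CPM with DMSO. The GW3965 libraries lay between the DMSO libraries. The log2 fold change was -0.01 ± 0.18 (SE), with a 95% interval of 0.748-fold to 1.32-fold (adjusted p = 0.9999, edgeR). Of its 31-mers, 15.3% also occur in 5830462I19Rik, an unclassified gene on the other strand. That gene had 94 estimated counts over the 4 libraries, against 1211 to 1526 for Scap in each, and the sources used here do not say whether the counting used strand.

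Mbtps1, on chromosome 8 (119508156 to 119558735, minus strand), encodes the protease that makes the opening cleavage in the Golgi. It had 42.6 and 49.2 CPM with GW3965 in mouse 1 and mouse 2, against 53.0 and 48.8 CPM with DMSO, so the groups overlapped. Mouse 1 gave a log2 difference of -0.31 and mouse 2 one of 0.01, and the fitted log2 fold change was -0.15 ± 0.18 (SE; 95% interval -0.56 to 0.26, adjusted p = 0.9999, edgeR). The main transcript held 97.1 to 100% of its count with GW3965, and 92.3 to 97.8% with DMSO.

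Mbtps2, on chromosome X (157535371 to 157598715, minus strand), encodes the membrane protease that makes the final cleavage. It was the lowest of the 6 genes, with 17.5 and 17.1 CPM with GW3965 against 19.9 and 17.2 CPM with DMSO. The GW3965 libraries differed by less than the DMSO libraries did, and the log2 fold change was -0.10 ± 0.20 (SE; 0.932-fold, 95% interval 0.688 to 1.26, adjusted p = 0.9999, edgeR). Of its 31-mers 30.8% recur in other genes, 2793 of them. The mean of Mbtps1 was 45.9 ± 4.64 CPM with GW3965 and 50.9 ± 2.99 CPM with DMSO, and that of Mbtps2 17.3 ± 0.312 and 18.6 ± 1.91 CPM (SD, n = 2 each). Per length Mbtps1 exceeded Mbtps2 by 1.66 and 1.70 times with GW3965 and by 2.07 and 2.21 times with DMSO. With the main transcript of each gene alone that order of the groups was absent: the ratios were 4.41 and 4.53 with GW3965 and 4.30 and 3.87 with DMSO.

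None of the 6 genes passed the test in edgeR (0 of 6, against 0.0588% of all 13602 genes tested), none had an unadjusted p under 0.05, and DESeq2 and limma-voom also called 0. All 6 fitted log2 fold changes were below 0, with a median of -0.13 against 0.00 for all genes, but those of Scap and Insig2 were within 0.01 of 0 and changed sign under other settings. The GW3965 culture was lower in both mice for 3 of the 6 genes (Srebf2, Insig1 and Mbtps2), and 17.2% of all genes were. For Mbtps2 the log2 difference in mouse 2 was only -0.011. The median log2 difference of the 6 was -0.25 in mouse 1 and 0.00 in mouse 2. Of their 27 counted transcripts 15 could be tested. None was called by edgeR, but neither was any other of the 32357 transcripts tested (0%). That fit therefore cannot set the member transcripts apart from the rest. None of the 15 had an unadjusted p under 0.05, where 846 of all 32357 transcripts did.

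The table of log2 CPM deposited by the authors holds all 6 genes. In the authors' deposited table Srebf2 was at 8.02 and 8.09 with GW3965 in mouse 1 and mouse 2, against 8.29 and 8.27 with DMSO. Insig1 was at 7.65 and 7.61 with GW3965 and at 7.83 and 8.00 with DMSO in the authors' deposited table, so the groups did not overlap there, while they did in the counts. The log2 difference of Insig1 was -0.18 in mouse 1 and -0.39 in mouse 2 in the authors' deposited table, against -0.42 and -0.29 from the counts. The other 4 genes differed by -0.136 to 0.065 within a mouse in the authors' deposited table. Values of the same mouse mirror each other in that table: with each gene centred on its mean, the GW3965 and DMSO columns correlated across genes at -0.959 in mouse 1 and -0.967 in mouse 2, against -0.324 and 0.348 in log2 CPM computed from the counts. The spread between mice in that table is therefore not that of the counts, and the sources used here do not say how it was scaled. In limma on that table Srebf2 had an unadjusted p of 0.0210 and Insig1 of 0.0259, and with the mouse as a block 0.229 and 0.125. Adjusted over its 8524 genes, neither passed in either fit (adjusted p = 0.9994 and 0.9998).

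**Figure D4:**
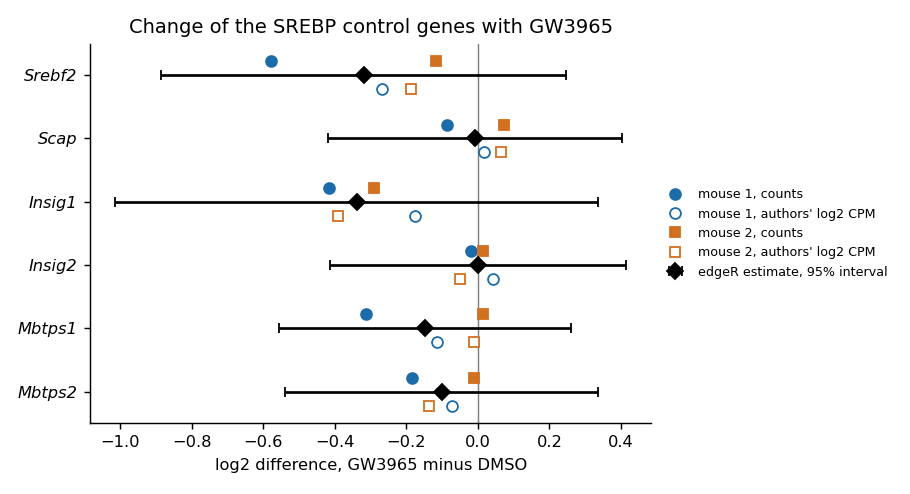
Log2 difference of each gene, GW3965 minus DMSO: black diamonds give edgeR's estimate with its 95% interval, filled symbols the difference within a mouse from the counts, and open symbols the same from the authors' deposited log2 CPM. All 6 intervals include 0, and Srebf2 and Insig1 lie lowest at -0.32 and -0.34.

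Listed SREBP2 target genes, 24 genes of cholesterol synthesis, uptake and transport, had a lower median log2 fold change than the 6 control genes. Single genes of the 2 sets overlapped. All 24 were tested. Each had an estimate below 0, and 22 were lower in both mice. The median log2 fold change was -0.56, against 0.00 for all genes, and -0.77 in mouse 1 and -0.40 in mouse 2. None passed the test over all genes in edgeR, DESeq2 or limma-voom (0 of 24). At an unadjusted p under 0.05, 11 were lower, where 0.382% of all genes were. With the GW3965 culture of mouse 2 removed, edgeR called 11 of the 24, all lower, and 0.191% of the 14114 genes then tested were called lower. The GW3965 library left in that fit is the one with the high mitochondrial share. With that of mouse 1 removed instead, the median was -0.28 and none was called. These values touch a pattern already known from this series, and the list was chosen with that in view.

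Mvd, which makes isopentenyl diphosphate, had 39.4 and 51.9 CPM with GW3965 in mouse 1 and mouse 2, against 75.8 and 92.0 CPM with DMSO (log2 fold change -0.88 ± 0.21, adjusted p = 0.958, edgeR). Mvk (mevalonate kinase), Idi1 (an isomerase of the same pathway) and Acat2 (acetoacetyl-CoA formation) had log2 fold changes of -0.72 ± 0.21, -0.78 ± 0.24 and -0.56 ± 0.19, each with an adjusted p of 0.9999. For Mvd the adjusted p depended on the fit. Without a block it was 0.0736 in edgeR's likelihood ratio test, 0.167 in DESeq2 and 0.9999 in limma-voom. With the mouse as a block it was 0.0719 in edgeR and 0.279 in DESeq2. In the blocked limma fit of the deposited log2 CPM, chosen after seeing the data, it was 0.00972. Srebf2 and Insig1 stood toward the upper end of the list: 17 of the 24 targets had a lower log2 fold change than Insig1 and 17 a lower one than Srebf2. By the difference within a mouse, 16 of the 24 targets were lower than Srebf2 in mouse 1 and 22 in mouse 2. For Insig1 the counts were 17 in mouse 1 and 16 in mouse 2.

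**Figure D5:**
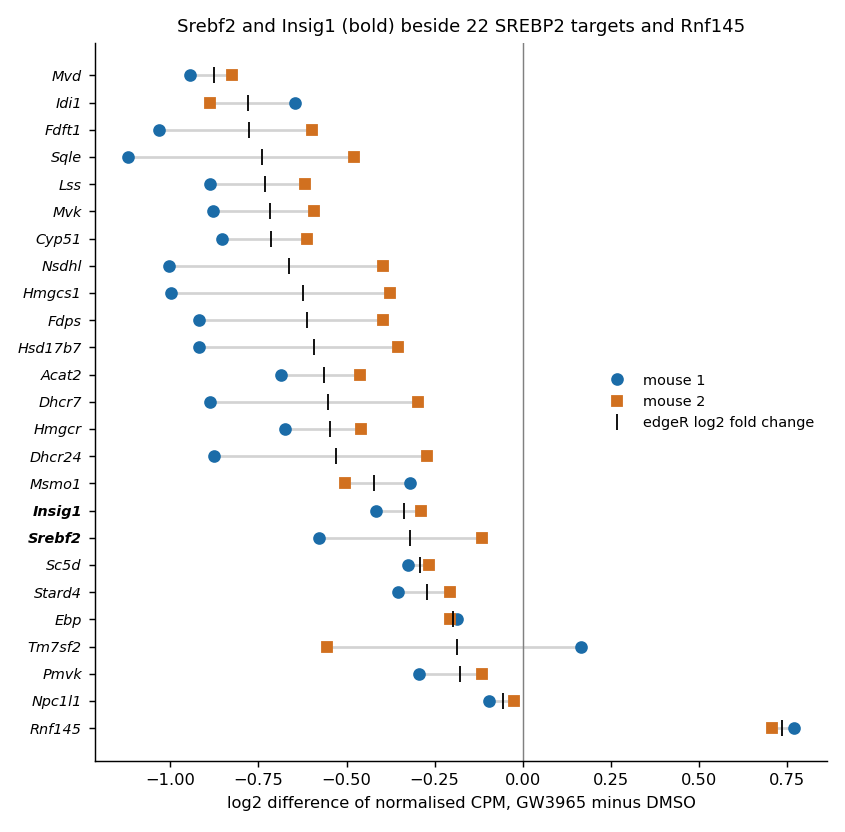
Log2 difference of normalised CPM, GW3965 minus DMSO, in mouse 1 (circles) and mouse 2 (squares) for 22 of the 24 SREBP2 targets, Srebf2, Insig1 and Rnf145, with the edgeR log2 fold change as a bar. Srebf2 and Insig1 lie toward the right of the targets, at -0.32 and -0.34, and Rnf145 is alone on the positive side in both mice.

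The proteins that retain, ubiquitinate or degrade SCAP, INSIG and SREBP were listed as 19 genes. All 19 were tested, 0 passed in edgeR, 8 were positive and 11 negative, with a median log2 fold change of -0.05. Rnf145, a ubiquitin ligase that acts on SCAP in mouse liver and is an LXR target there, was the one member with an unadjusted p under 0.05. It had 31.7 and 35.4 CPM with GW3965 in mouse 1 and mouse 2, against 18.6 and 21.7 CPM with DMSO. Both GW3965 libraries lay above both DMSO libraries, as they did for 9.28% of all genes tested. At an unadjusted p under 0.05 in edgeR, 0.669% of all genes tested were higher with GW3965. Within mouse 1 the log2 difference was 0.77 and within mouse 2 it was 0.71, and the log2 fold change was 0.74 ± 0.19 (SE; 1.67-fold, 95% interval 1.24 to 2.24, unadjusted p = 0.00338, adjusted p = 0.9999, edgeR). With a GW3965 culture removed, the log2 estimate for Rnf145 became 0.81 (mouse 1 removed) or 0.65 (mouse 2 removed). With a DMSO culture removed, the estimate became 0.63 (mouse 1) or 0.85 (mouse 2). Such a fit holds a lone library in 1 group, so it cannot decide whether Rnf145 passed. Among the alternatives that kept every library, the lowest adjusted p was 0.161, in the blocked limma fit of the deposited log2 CPM. The next 3 by p were Ube2j1, a ubiquitin-conjugating enzyme, at -0.17 ± 0.21, Spring1 (2410131K14Rik in the annotation), which aids site-1 protease and SCAP, at -0.13 ± 0.22, and Ube2j2 at -0.11 ± 0.20.

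The COPII coat, which carries SCAP and its cargo out of the endoplasmic reticulum, was listed as 10 genes. None passed in edgeR or had an unadjusted p under 0.05, 8 were negative, and the median log2 fold change was -0.11, with -0.36 in mouse 1 and 0.07 in mouse 2. Sec23b and Sec23a, inner coat subunits, were at -0.25 ± 0.24 and -0.22 ± 0.26, and the cargo adaptors Sec24d and Sec24a at -0.17 ± 0.26 and -0.14 ± 0.20. Of 8 genes that move sterols within the cell or esterify them, none passed and 5 were positive, with a median of 0.12. Soat1, which esterifies cholesterol, had 46.8 and 48.3 CPM with GW3965, against 37.5 and 35.3 CPM with DMSO (log2 fold change 0.39 ± 0.18, unadjusted p = 0.0545, adjusted p = 0.9999, edgeR). In TPM the Soat1 groups overlapped, at 28.1 and 36.4 with GW3965 against 38.6 and 22.5 with DMSO, and limma on log2(TPM + 1) gave a log2 fold change of 0.11. Soat2, its relative in enterocytes, was at 0.23 ± 0.21, and the sterol carriers Gramd1a and Gramd1b were at 0.38 ± 0.29 and 0.27 ± 0.23. Of 8 other substrates of the site-1 and site-2 proteases, none passed, 4 were positive and 4 negative, and the median was -0.01. Creb3l2 (0.17 ± 0.22), Creb3l3 (0.08 ± 0.24), Creb3 (-0.09 ± 0.19) and Atf6 (-0.10 ± 0.24), all membrane-bound transcription factors, had the smallest p of that list.

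Genes with the profile most like that of Srebf2 and Insig1 over the 4 libraries were found by the root mean square difference of centred log2 CPM, among 8753 genes whose mean reached 10 CPM. Among the 5 nearest to Insig1 were Ptprh (0.082), Slc5a8 (0.091), Slc9a3r1 (0.097) and Lhfpl2 (0.098). Nearest to Srebf2 were Nab1 (0.029), Ncapg2 (0.030), Arnt2 (0.035), Gm7887 (0.038) and Borcs6 (0.038), none of which is in the lists above. With 4 libraries these are descriptions of likeness alone.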

How the data were processed

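Poly-A RNA of 4 organoid libraries was prepared with a stranded TruSeq kit and read from one end for 50 bases (HiSeq-2500), per the labels' protocols. The submitters' processing notes name kallisto and FastQC (no versions) and CASAVA 1.7, with mm10 as the build. Each library has estimated counts and TPM per transcript, deposited by the authors in kallisto's format, per the file headers. The authors also deposited the estimated counts rounded to whole numbers (largest gap 0.5), and log2 CPM for 8524 gene symbols, whose filter and scaling the sources used here do not state.

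Of 88198 transcripts, 86119 (97.6%) matched GENCODE M21 (GRCm38). Summing them by gene gave 30284 genes, and the sums were rounded. The unmatched ones, 0.685 to 0.854% of the counts of a library, stayed out of library sizes and tests. Genes were tested across all genes by the quasi-likelihood test of edgeR 4.0.16 (R 4.3.3), after filterByExpr and TMM scaling and with no block, called at an adjusted p (Benjamini-Hochberg) below 0.05. Standard errors come from the F statistic. Transcripts were tested likewise. The mouse number marks the same animal, per the labels, so fits with the mouse as a block were run beside it. As a check of this pairing, same-mouse deviations from the group means correlated at 0.072. All pairs of libraries differed by more than counting noise (chi-square over its degrees of freedom, 10.5 to 77.6). Whether a culture was 1 well or several is not stated. The p-values rest on the spread between the 2 libraries of a group, partly shared across genes. Without a block, edgeR gave that spread 7.78 degrees of freedom from all genes beside 2 from the gene itself. With the mouse as a block, the gap between mice is taken out and 1 residual degree of freedom is left. In that fit edgeR's degrees of freedom from all genes were infinite. Its p-values therefore rest on a spread taken from all genes and not on that of the gene itself. The alternatives used DESeq2 1.42.0, limma 3.58.1, other scalings, filters and sources of values, and leaving out each library.

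The genes and lists were chosen with earlier results of these data known. Named from each list were up to 4 genes with the smallest p and any gene past the threshold; some listed genes enter the counts and are not reported here by name. Promoter windows came from RefSeq (all 6 genes matched, 9 windows). The edgeR step was tested on simulated data. The intervals of the fold changes were built from edgeR's standard errors, so they include the spread between libraries and not counting error alone. Reads carry no molecular identifiers.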

Additional observations from a re-analysis of the deposited data

How the results depend on the processing

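None of the 6 genes passed in any of 19 alternatives, of which 15 changed a setting and 4 left out a library. Srebf2, Insig1 and Mbtps1 stayed lower with GW3965 in all 19: without 1 library their log2 fold changes ran from -0.63 to -0.07, from -0.75 to -0.01 and from -0.26 to -0.05, and under the other 15 settings from -0.43 to -0.23, from -0.43 to -0.28 and from -0.23 to -0.06. The smallest adjusted p, without the GW3965 library of mouse 2, were 0.0836 for Srebf2 and 0.110 for Insig1. The direction turned for Scap with limma on the deposited log2 CPM (0.04, also 0.04 with the mouse as a replicate block), and its values without 1 library ran from -0.07 to 0.05. For Insig2 it turned with limma on log2(TPM + 1) and log2(TPM + 0.1) (0.15 in both), without mitochondrial genes (0.01), and with RLE size factors, protein-coding genes alone and DESeq2 (0.00 in each), with -0.08 to 0.08 without 1 library. For Mbtps2 it turned with limma on log2(TPM + 1) (0.10) and log2(TPM + 0.1) (0.12), with -0.21 to 0.01 without 1 library. The cause was not tested.

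The count of all genes called was 8, and it was 13 without scaling, 14 without a filter on low counts, 20 with DESeq2, 20 with limma-voom, 29 with the likelihood ratio test, 48 with the mouse as a replicate block in edgeR, 13 and 16 with limma on log2(TPM + 1) and log2(TPM + 0.1), 0 with limma on the deposited log2 CPM and 18 with the mouse as a replicate block there, and 38 to 84 without 1 library. Of the 24 SREBP2 targets 0 were called, but 2 with limma on the deposited log2 CPM and the mouse as a replicate block, and 0 to 11 without 1 library. Of the 37 other trafficking and turnover genes 0 were called, and 0 to 1 without 1 library. With the block in edgeR 0 of the 6 genes and 0 of the listed genes were called. In DESeq2 the same block gave 12 calls over all genes. Member transcripts and protease substrates had 0 calls in all fits run for them. The blocked fit of the deposited table was chosen after seeing the data. With 2 libraries a group, the 95% intervals of the 6 genes reached from 0.495-fold to 1.33-fold. Fits without 1 library assume that the lone library of a group varies like the others.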
